A study of Mus musculus with 2 samples.

Results

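The genes of S phase and mitosis were followed in adult mouse mammary epithelium as a set of 44 listed genes: 24 mitosis genes, 16 DNA replication genes and 4 genes of wider use in chromatin and the cytoskeleton (Stmn1, Hmgb2, Tubb5 and H2afz). All 44 were found by symbol among the 27998 genes counted. They were measured by 10X Chromium single-cell RNA-seq, which counts unique molecules (UMIs) at the 3′ ends of transcripts. There were 2 libraries, both from adult FVB/NJ mice, and the deposited design names 8 mice in all. The total epithelial library held 3302 Lin-CD24+ cells, and the sorted basal library held 4771 Lin-CD29hiCD24+ cells. Neither group carried a treatment or an engineered allele, and the animals behind a library were pooled, so each group is 1 library and no difference below has a replicate check or a p-value. Intervals are exact 95% Poisson intervals for counts and exact binomial intervals for shares, and they cover counting error only.

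A dividing cell passes through S phase, in which the chromosomes are copied, and then through G2 and mitosis, in which they are condensed, aligned on the spindle and pulled apart. Genes of DNA replication are switched on by E2F factors at the G1 to S border, whereas most mitosis genes are held off in resting cells and switched on in G2 through CHR elements and CCAAT boxes near their start sites. In the mammary gland the epithelium is made of an outer basal (myoepithelial) layer and an inner luminal layer with luminal progenitor (LP) and hormone-sensing mature luminal (ML) cells. Most of these cells rest in the adult gland outside pregnancy.

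Cells of the total epithelial library were placed in lineages by fixed counts. Cells with 10 or more counts of Krt5, Krt14 and Acta2 together were called basal (1280 cells), those with 10 or more counts of Prlr, Stc2 and Gpx3 were called ML (1133 cells), and other cells with 3 or more counts of Krt8, Krt18 and Krt19 were called LP (766 cells). A further 26 cells met both the basal and the ML rule, and 97 cells met none. The marker lists fitted these names in the sums: basal markers stood at 51095 counts per 1000000 counts (CPM) in basal cells and at 266 and 147 CPM in LP and ML cells, LP markers at 59617 CPM in LP cells against 5535 in ML cells, and ML markers at 12739 CPM in ML cells against 1062 in LP cells. Both luminal rules were loose. Of the 766 LP cells 89 (11.6%) held more ML than LP marker counts, and of the 1133 ML cells only 988 (87.2%) did. In the library 109 cells held 8 to 12 counts of the ML rule genes. Immune markers were at 0 in LP and ML cells and at 3 counts in basal cells. The 97 cells outside the rules carried fibroblast markers at 8489 CPM, with 1358 counts. Most of the 8409 fibroblast marker counts of the library, 5863, were in ML cells. Their level was 1419 CPM in ML, 358 in basal and 83.4 in LP cells, and the median ML cell had 0 of these counts. The ML rule counts Gpx3 and asks for no keratin. The paper lists Gpx3 beside Col3a1 among the top genes of a small cluster close to its basal cells. How many such cells were called ML was not tested, so ML values below may include them. The cells of the library held 802 to 12967 UMIs, with medians of 1820, 2483.5 and 3403 in basal, LP and ML cells. A total of 28 cell barcodes occurred in both libraries.

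The first question was how many cells of each lineage showed the S-phase and mitosis programme. By the stated rule, 3 or more of the 44 genes in a cell, 539 of 1280 basal cells (42.1%, 39.4 to 44.9), 216 of 766 LP cells (28.2%, 25.0 to 31.5) and 489 of 1133 ML cells (43.2%, 40.3 to 46.1) qualified. These shares followed depth: cells that qualified held a median of 2251, 3536 and 4370 UMIs in basal, LP and ML cells, against 1582, 2197 and 2849.5 in the cells that did not. When every cell was thinned at random to 800 UMIs, 126 basal cells (9.84%, 8.27 to 11.6), 22 LP cells (2.87%, 1.81 to 4.32) and 35 ML cells (3.09%, 2.16 to 4.27) were left. The order of basal and ML cells thus turned with the thinning: ML cells came out level with basal cells as sequenced and well below them at equal depth. The same was seen without thinning when cells of like depth were compared. Among cells of at least 1500 and under 2500 UMIs, 223 of 557 basal cells qualified, with 17.2% of the LP and 12.6% of the ML cells, and among those of 4000 UMIs or more it was 89.2%, 60.9% and 68.9% in that order.

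**Figure D1:**
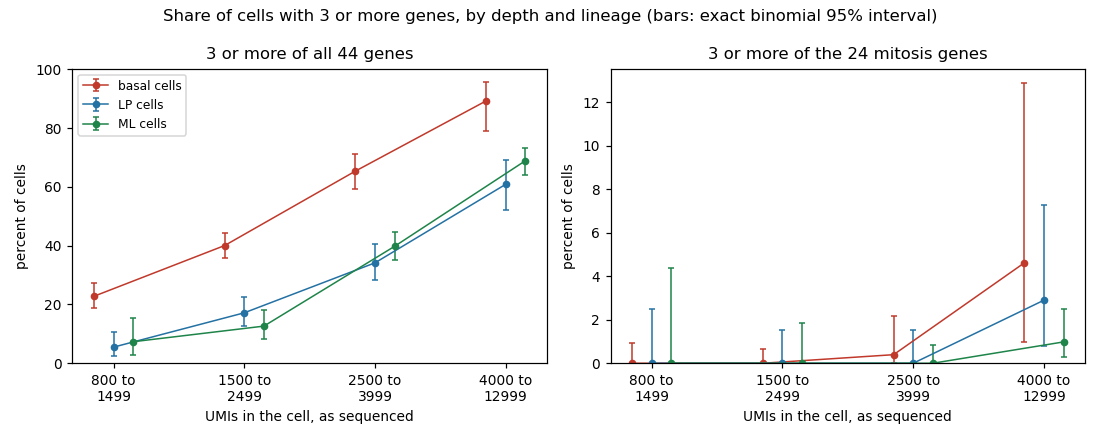
Percent of cells (y axis) with 3 or more of all 44 genes (left) and of the 24 mitosis genes (right), by UMIs in the cell (x axis) and lineage (colours), with exact binomial 95% intervals. On the left the basal share lies above the others at each depth, from 22.8% to 89.2%, and on the right nearly all the cells found are in the deepest group.

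Few of these cells carried mitosis genes. Of the 1276 cells of the library with 3 or more of the 44 genes, 86.1% had no count of any of the 24 mitosis genes, and 40.5% qualified on Tubb5, H2afz, Hmgb2, Pcna and Slbp alone. In the basal cells that qualified, Tubb5, a beta-tubulin, was found in 84.0% and H2afz, the histone variant H2A.Z, in 75.5%. Without the 4 genes of wider use, 73 of 1280 basal cells (5.70%, 4.50 to 7.12) had 3 or more of the remaining 40 as sequenced, and 12 (0.938%, 0.485 to 1.63) did at 800 UMIs. No cell type that should lack these genes was at hand to set a background for their shares of cells. The count by 3 of 44 genes therefore describes mainly widely used genes, and the mitosis genes were taken on their own.

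Counts of the mitosis genes gathered in a very small set of cells. Among the 3302 cells, 3064 had no mitosis gene, 211 had 1 and 14 had 2. Only 13 cells (0.394%, 0.210 to 0.672) had 3 or more, and among them 5 cells had exactly 3, no cell had 4 or 5, and 8 cells had 6 to 20. These 13 cells held 0.865% of the UMIs of the library and 355 of its 611 mitosis gene counts (58.1%). The 8 cells with 6 or more genes alone held 54.8%. The 13 cells were also deep, with a median of 6423 UMIs against 2416 in the rest. The lowest held 1827 UMIs, and no cell of an epithelial lineage under 2500 UMIs qualified. At 0 of 404 basal cells under 1500 UMIs the exact upper limit was 0.909%. Scrublet, which compares cells with simulated doublets, called 41 of 3302 cells (1.24%) and none of the 13.

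**Figure D2:**
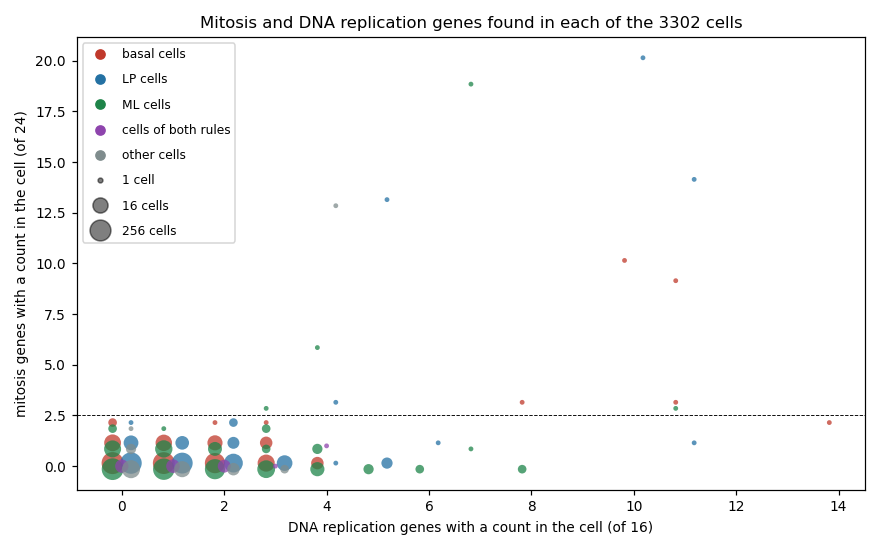
Number of mitosis genes (y axis) against number of DNA replication genes (x axis) with a count in each cell of the total epithelial library. Colours are lineages, point area grows with the number of cells and the dashed line separates the 13 cells with 3 or more mitosis genes, of which 8 lie at 6 to 20 genes.

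By the lineage rules the 13 cells were 4 basal, 4 LP and 4 ML cells and 1 cell outside the rules. The luminal calls did not follow the markers. In 3 of the 4 LP cells ML markers reached 76, 52 and 61 counts and LP markers 0, 0 and 1 count, so that they fell short of the ML rule only on Prlr, Stc2 and Gpx3 (6, 7 and 9 counts). The fourth LP cell had 128 LP and 1 ML marker counts. In all, 6 of the 13 cells had luminal keratins and more ML than LP marker counts. Outside the basal rule, 2 cells had luminal keratins and more LP than ML marker counts. Of those 2, 1 (352 LP and 27 ML counts) was ML by the rule. Among the basal cells, 3 had 112 to 145 counts of the basal rule genes and the remaining cell had 12 of them in 6865 UMIs, beside 13 LP and 10 fibroblast marker counts. The cell outside the rules had no keratin count and 4 fibroblast marker counts.

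The cell with the most mitosis genes, an LP cell by the rule with ML markers, had 20 of 24 with 108 counts in 8574 UMIs. It also carried 10 of the 16 DNA replication genes. An ML cell had 19 mitosis genes with 79 counts, and the LP cell with LP markers had 14 mitosis and 11 replication genes. At the other end, an ML cell with Cenpa, Aurka and Racgap1 alone had 3 replication genes (Pcna, Mcm7 and Slbp). A basal cell with Ccna2, Cdk1 and Cdc20 had 11 replication genes and an ML cell with Cdk1, Cdc20 and Nusap1 had 11 as well. The small set thus held cells rich in both lists, cells with a replication profile and few mitosis genes, and cells at the edge of the rule.

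Among the 12 mitotic regulators, Ccnb2 (cyclin B2, a partner of Cdk1 at entry into mitosis) had 1 count in basal cells, 18 in LP cells and 15 in ML cells, or 0.377, 8.34 and 3.63 CPM. All LP counts came from 4 cells and all ML counts from 3 cells. Birc5 (survivin, of the chromosomal passenger complex) stood at 3.02, 9.27 and 2.18 CPM, with its 20 LP counts in 5 cells. Ube2c, the ubiquitin-conjugating enzyme of the anaphase-promoting complex, had 5, 12 and 20 counts, and the 20 counts in ML cells came from 1 cell. Cdc20, an activator of the same complex, was spread more widely in basal cells (36 counts in 34 cells, 13.6 CPM) and ML cells (35 counts in 29 cells, 8.47 CPM). In LP cells its 33 counts came from 6 cells (15.3 CPM). Aurka (Aurora A kinase, of the spindle poles) had 12, 5 and 20 counts in 10, 4 and 18 cells. Cdk1, the kinase of mitotic entry, was level across the lineages at 4.15, 4.17 and 3.87 CPM. Ccna2 (cyclin A2) had 8, 6 and 0 counts, and in ML cells the exact upper limit was 0.893 CPM. Ccnb1, Aurkb, Plk1, Bub1b and Bub1 had 1 to 20 counts each in the library.

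For the 12 chromosome and spindle proteins, the 13 cells held 72.0% of the counts in LP cells, beside 90.7% for the mitotic regulators; the difference was not tested. Without those cells the LP level was 0.891 times the basal level (0.516 to 1.52) for these proteins and 0.247 times (0.121 to 0.463) for the regulators. The cells left out were chosen by these same genes, so a fall without them was built in. The remaining ratios therefore do not measure how the lineages differ. Mki67, the gene of the Ki-67 antigen used to mark dividing cells, had 3 counts in 3 basal cells, 0 in LP cells (at most 1.71 CPM) and 2 in 2 ML cells. It was therefore found in 5 of 3302 cells, and 4 of those counts were in cells with 3 or more other mitosis genes. Top2a, the topoisomerase that untangles the copied chromosomes, had 9, 4 and 7 counts (3.39, 1.85 and 1.69 CPM). Cenpa, the histone of the centromere, was the most counted at 22, 43 and 38 counts in 22, 13 and 33 cells (8.30, 19.9 and 9.19 CPM). Racgap1, which acts in cytokinesis, had 2, 12 and 10 counts. Cenpe, a kinesin of the centromere, had 2, 9 and 3 counts, and Cenpf had 0, 5 and 8. The remaining 6 genes (Tpx2, Nusap1, Hmmr, Kif11, Kif23 and Prc1) had 7 to 10 counts each in the library.

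Whether the 24 mitosis genes marked the same cells was asked gene by gene, by counting each gene in cells with 3 or more of the other 23, so that a gene did not choose its own cells. In all 24 the share of counts in those cells lay above the cells' share of UMIs, from 10.0% to 100% with a median of 73.2%. All 9 counts of Plk1, 8 of Bub1b and 7 of Hmmr were there, as were 32 of 36 of Ccnb2 (88.9%, 73.9 to 96.9), 36 of 42 of Birc5 and 36 of 42 of Ube2c (85.7% each, 71.5 to 94.6). Cdc20 (34.3%, 36 of 105 counts) and Cenpa (33.3%, 36 of 108) kept most of their counts outside. Aurka (10.3%, 4 of 39) and Prc1 (10.0%, 1 of 10) were the least confined. The interval lay above the share of UMIs in 16 of the 17 mitosis genes with 10 or more counts, and for Prc1 it did not. That count is not given here for all genes. By level, all 17 were 2-fold or more higher there, whereas 17.1% of 12062 genes were so in the 13 cells. The intervals treat counts of the same cell as separate: the 36 counts of Ube2c there came from 4 cells and the 36 of Cenpa from 5.

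**Figure D3:**
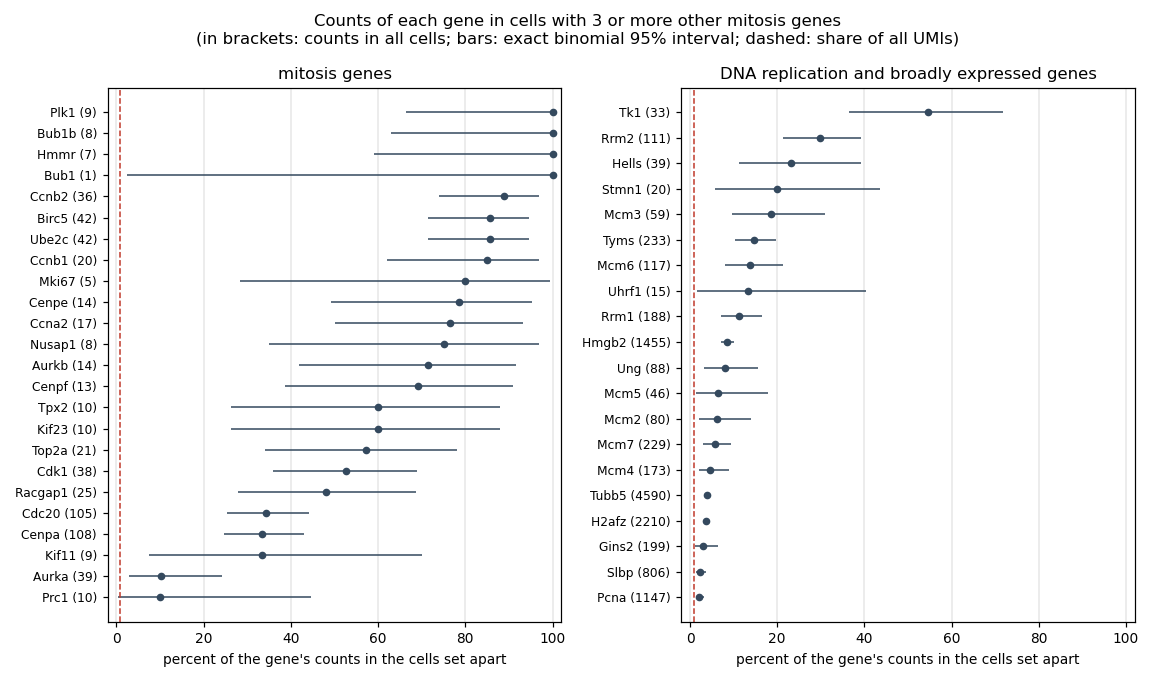
Percent of each gene's counts (x axis) in the cells with 3 or more other mitosis genes, with the gene's counts in all cells in brackets and exact binomial 95% intervals. The dashed line is the share of UMIs in those cells, at most 0.865%; most mitosis genes lie above 50%, Aurka and Prc1 near 10%, and Pcna and Slbp close to the line.

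The promoters of the members are shown because genes that gathered in the same cells could be compared for shared sequence. RefSeq windows from 250 bases before to 50 bases after the start site (GRCm38.p6) were at hand for 21 of 24 mitosis, 14 of 16 replication and 2 of 4 widely used genes; Ccna2, Aurkb, Tpx2, Mcm4, Gins2, Stmn1 and H2afz were not matched. The stretch from 120 bases before to 50 after the start is given for the 2 matched genes of each role with the most counts in the 13 cells (mitotic regulators, chromosome and spindle proteins, fork proteins, nucleotide supply, widely used genes), 5′ to 3′ on the strand of the gene, with CHR elements, CCAAT boxes and E2F sites in capitals.
Cdc20, chr4:118437294-118437463, minus strand: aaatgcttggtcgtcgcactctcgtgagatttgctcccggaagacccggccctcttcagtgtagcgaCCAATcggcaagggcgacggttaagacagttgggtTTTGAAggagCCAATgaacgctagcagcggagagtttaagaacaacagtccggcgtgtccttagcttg
Birc5, chr11:117849117-117849286, plus strand: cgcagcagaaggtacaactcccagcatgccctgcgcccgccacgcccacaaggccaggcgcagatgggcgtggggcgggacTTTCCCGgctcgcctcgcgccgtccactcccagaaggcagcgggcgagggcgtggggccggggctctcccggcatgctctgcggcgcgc
Cenpa, chr5:30666766-30666935, plus strand: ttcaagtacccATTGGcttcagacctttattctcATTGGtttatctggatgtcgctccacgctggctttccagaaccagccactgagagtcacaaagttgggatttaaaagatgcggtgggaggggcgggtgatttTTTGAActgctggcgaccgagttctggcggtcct
Racgap1, chr15:99651607-99651776, minus strand: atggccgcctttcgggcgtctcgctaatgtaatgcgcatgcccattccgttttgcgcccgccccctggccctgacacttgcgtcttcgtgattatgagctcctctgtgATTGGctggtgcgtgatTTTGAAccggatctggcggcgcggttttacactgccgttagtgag
Pcna, chr2:132253131-132253300, minus strand: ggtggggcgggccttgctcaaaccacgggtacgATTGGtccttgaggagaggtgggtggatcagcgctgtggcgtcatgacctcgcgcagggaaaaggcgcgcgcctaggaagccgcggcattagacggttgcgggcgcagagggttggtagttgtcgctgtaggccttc
Mcm6, chr1:128359656-128359825, minus strand: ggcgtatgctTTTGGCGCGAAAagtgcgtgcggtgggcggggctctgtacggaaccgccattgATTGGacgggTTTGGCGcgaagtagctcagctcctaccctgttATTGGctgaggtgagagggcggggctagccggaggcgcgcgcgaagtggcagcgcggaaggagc
Tyms, chr5:30073576-30073745, minus strand: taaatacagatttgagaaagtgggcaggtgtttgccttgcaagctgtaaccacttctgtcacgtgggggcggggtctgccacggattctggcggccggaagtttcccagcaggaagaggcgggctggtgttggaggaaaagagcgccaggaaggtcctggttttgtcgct
Rrm2, chr12:24708134-24708303, plus strand: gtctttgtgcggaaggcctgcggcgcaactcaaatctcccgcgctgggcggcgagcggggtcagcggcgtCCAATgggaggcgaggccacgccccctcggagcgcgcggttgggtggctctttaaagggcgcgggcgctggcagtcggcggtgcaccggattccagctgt
Tubb5, chr17:35838252-35838421, minus strand: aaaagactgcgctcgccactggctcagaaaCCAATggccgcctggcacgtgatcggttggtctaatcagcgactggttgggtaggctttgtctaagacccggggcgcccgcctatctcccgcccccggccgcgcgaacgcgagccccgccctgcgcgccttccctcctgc
Hmgb2, chr8:57511723-57511892, plus strand: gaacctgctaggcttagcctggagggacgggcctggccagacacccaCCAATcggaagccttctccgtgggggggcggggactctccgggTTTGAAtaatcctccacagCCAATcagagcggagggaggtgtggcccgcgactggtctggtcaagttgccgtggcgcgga

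Both strands were searched for the CHR element as TTTGAA or TTCGAA, the CCAAT box as CCAAT, and the E2F site as TTTGGCG, as TTTCCCG, as TTTCGCG or as TTTGCCG, with overlapping matches kept. A CHR match was held by 17 of the 21 mitosis promoters (81.0%), 2 of the 14 replication promoters (14.3%) and 21.7% of 27025 genes. The CCAAT box was held by 19 of 21 mitosis and 10 of 14 replication promoters against 41.1% of all genes, and all 17 mitosis promoters with a CHR match also had a CCAAT box, a pair held by 8.61% of all genes. The E2F site showed the other division, with 3 of 21 mitosis promoters (14.3%), 6 of 14 replication promoters (42.9%) and 7.65% of all genes. In the promoters above, Cdc20 has its CHR match at base -18 and Cenpa and Racgap1 have theirs at bases 17 and 6, downstream of the start (the first transcribed base is 1). Birc5, whose counts were as confined as those of Ube2c, had an E2F match and neither of the others in this window. Tyms had no match to any of the 3 motifs, and Tubb5 had CCAAT boxes alone. Hmgb2, listed among the widely used genes, had the CHR and CCAAT pair of the mitosis genes. These matches describe letters in a window and not the binding of a factor.

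**Figure D4:**
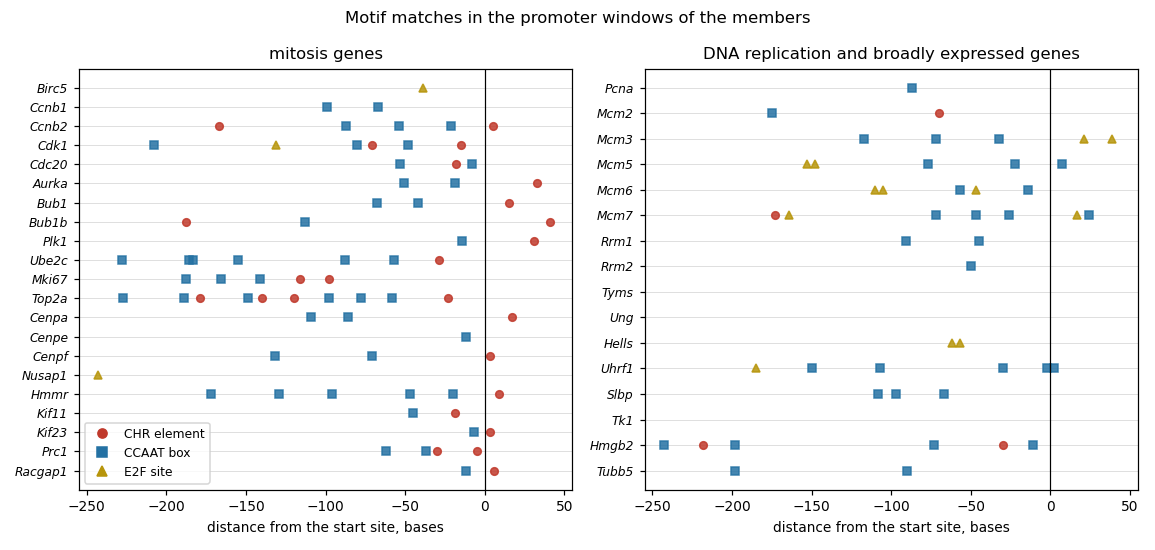
Position of each motif match (x axis, bases from the start site) in the RefSeq promoter windows of the matched members (rows). CHR matches (circles) lie in 17 of 21 mitosis promoters and mostly near the start site, whereas E2F matches (triangles) lie in 6 of 14 replication promoters.

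Summed over the 24 genes, the mitosis level was 52.4 CPM in basal cells (44.1 to 61.9), 102.8 in LP cells (89.8 to 117.3) and 51.8 in ML cells (45.1 to 59.2). The LP level was 1.96 times the basal level (1.58 to 2.44) and the ML level was 0.988 times it (0.794 to 1.23). The LP value rested on its 4 cells, which held 82.9% of the counts, against 30.9% in basal and 45.8% in ML cells. Without the 13 cells the levels were 36.5, 17.8 and 28.3 CPM, the ratio of LP to basal cells was 0.488 (0.326 to 0.718) and its direction had turned. It also turned when the 89 LP cells with more ML than LP marker counts were counted as ML, at a log2 ratio of -0.86. Those 2 alternatives were chosen after seeing the data, and the first leaves out cells chosen by the same genes, so a fall was built in. No order of the lineages by mitosis genes was therefore stable, and the share of cells with 3 or more mitosis genes was 4 of 1280, 4 of 766 and 4 of 1133 cells.

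The DNA replication genes behaved otherwise, with a broad low level in many cells. Their summed level was 530 CPM in basal cells (503 to 559), 359 CPM in LP cells (334 to 385) and 314 CPM in ML cells (297 to 331). The ratio to basal cells was 0.676 in LP (0.619 to 0.739) and 0.591 in ML cells (0.548 to 0.638), and as counts per cell, without scaling to depth, the ML difference turned to a log2 ratio of 0.058. The 13 cells held 6.43% of the replication counts, and without them the ratios were 0.680 and 0.620. Much of the sum came from Pcna and Slbp, with 838 of the 1406 counts in basal cells. They gave 448 of 774 counts in LP cells and 619 of 1296 in ML cells. Without these 2 genes the ratios were 0.705 (0.613 to 0.809) in LP and 0.765 (0.683 to 0.857) in ML cells.

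Among the helicase, clamp and fork proteins, Pcna, the sliding clamp of the replication fork that also serves in repair, had a count in 28.8% of the basal cells, 25.8% of the LP cells and 26.2% of the ML cells, at 179 (163 to 196), 125 and 90.5 CPM. The Mcm2 to Mcm7 genes encode the ring of the replicative helicase, yet they did not move together. Mcm2 was lowest in basal cells (8, 15 and 57 counts; 3.02, 6.95 and 13.8 CPM), 4.57 times higher in ML than in basal cells (2.17 to 11.1). Mcm5 had the same order (7, 9 and 28 counts; 2.64, 4.17 and 6.77 CPM). Mcm4 was highest in basal and lowest in LP cells, with 72, 26 and 71 counts (27.2 CPM in basal and 17.2 CPM in ML cells), and its basal level was 2.25 times the LP level (1.42 to 3.68). Mcm7 stood at 27.5, 15.8 and 28.6 CPM, and Mcm6 was level at 11.7, 14.8 and 12.6 CPM. Gins2, a subunit of the GINS complex that works with the helicase, had 21.1, 15.8 and 25.2 CPM.

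**Figure D5:**
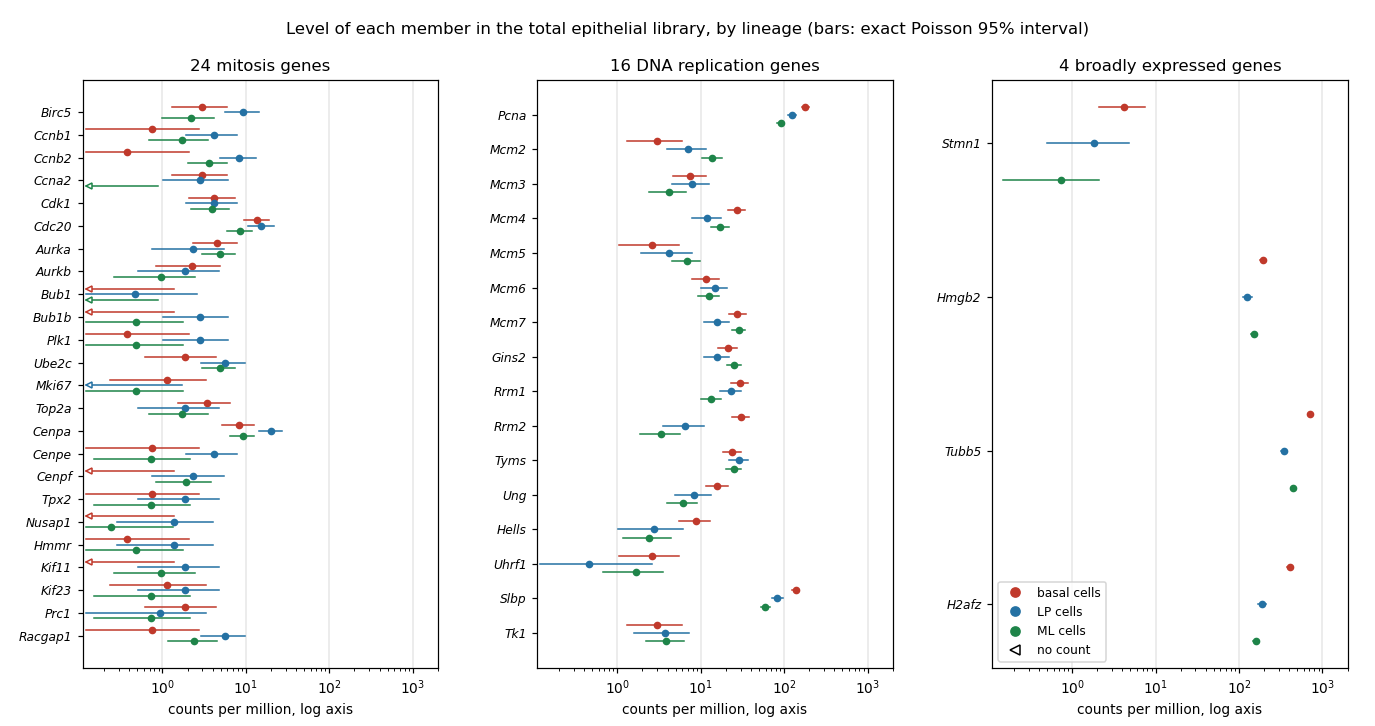
Level of each of the 44 genes (rows) in basal, LP and ML cells of the total epithelial library in CPM (x axis, log scale), with exact Poisson 95% intervals and open triangles for no count. Replication genes such as Rrm2 and Slbp lie highest in basal cells and Mcm2 lowest there, while the intervals of most mitosis genes overlap widely.

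Genes of nucleotide supply, repair and chromatin copying were mostly highest in basal cells. Rrm2, the S-phase subunit of ribonucleotide reductase, had 80 counts in 37 basal cells, 14 in 6 LP cells and 14 in 12 ML cells (30.2, 6.49 and 3.39 CPM). It was 4.65 times higher in basal than in LP cells (2.62 to 8.89) and 8.91 times higher than in ML cells (5.01 to 17.0), the widest gaps in the list for genes with 30 or more counts in the higher lineage. Rrm1, the large subunit, was nearer to even at 29.4, 23.2 and 13.3 CPM. Slbp, which binds the stem-loop of histone mRNAs, was seen in 23.4%, 18.1% and 19.2% of the cells of those lineages, at 137, 82.9 and 59.3 CPM. Ung, a uracil-DNA glycosylase of base excision repair, stood at 15.8, 8.34 and 6.05 CPM. Hells, a chromatin remodeller, had 23, 6 and 10 counts (8.67, 2.78 and 2.42 CPM). Tyms (thymidylate synthase) was level at 23.8, 28.7 and 24.9 CPM, as was Tk1 (thymidine kinase) at 3.02, 3.71 and 3.87 CPM. Uhrf1, which keeps DNA methylation after replication, had 7, 1 and 7 counts.

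Most cells with 3 or more replication genes had no mitosis gene. Of the 3302 cells, 174 had 3 or more replication genes and 142 of those had no mitosis gene. The 174 cells were deep, with a median of 4125.5 UMIs against 2425.5 in the whole library. With cells thinned to 800 UMIs, 13 cells had 3 or more replication genes, so this count followed depth. At 8 or more replication genes 11 cells remained (5 basal, 3 LP and 3 ML), of which 7 were among the 13 cells with 3 or more mitosis genes and 2 had no mitosis gene. The cell with the most, a basal cell of 8220 UMIs with 14 of 16 replication genes, had 2 mitosis genes. An LP cell of 5008 UMIs with 248 LP marker counts had 11 replication genes and 1 mitosis gene. The 2 cells with no mitosis gene were ML cells with 8 replication genes each, among them 4 and 5 of the Mcm genes, and no Rrm1, Rrm2 or Tyms.

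The 4 genes of wider use carried 8275 of the 12449 counts of all members, which together were 0.135% of the counts of the library. Their level was 1313 CPM in basal (1269 to 1357), 664 in LP and 750 in ML cells, or 0.506 times (0.475 to 0.538) and 0.572 times (0.544 to 0.60) the basal level. As counts per cell the ML difference vanished (log2 ratio 0.009). Tubb5 stood at 712, 347 and 440 CPM and H2afz at 403, 189 and 160 CPM, with Tubb5 found in 64.0% of basal cells. Hmgb2, a chromatin protein of the HMG-box family, was nearer to even at 193, 126 and 150 CPM. Stmn1, which takes microtubules apart, had only 11, 4 and 3 counts, so it was not broadly expressed here.

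Across the lineages 36 of the 44 members reached 10 counts over the 3 lineages and could be compared at a ratio of 2 or more. At 2-fold, 6 were higher in LP than in basal cells (Birc5, Ccnb2, Cenpa, Ube2c, Racgap1 and Mcm2; 16.7% of 36, against 11.5% of the 11868 genes compared) and 6 were higher in basal cells (Mcm4, Rrm2, Hells, Stmn1, Tubb5 and H2afz; 16.7% against 21.4%). With TMM scaling in place of total counts the split was 6 to 2, with all genes at 14.5% and 17.2%. Higher in ML than in basal cells were 5 (Ccnb2, Ube2c, Racgap1, Mcm2 and Mcm5; 13.9% against 19.5%), and 7 were higher in basal cells (Rrm1, Rrm2, Ung, Hells, Slbp, Stmn1 and H2afz; 19.4% against 20.4%), which became 7 to 3 as counts per cell. Higher in LP than in ML cells were 4 (Birc5, Ccnb2, Cenpa and Racgap1; 11.1% against 9.56%) and only Aurka was higher in ML cells (2.78% against 17.1%). That split was 8 to 0 under TMM (all genes 11.8% and 12.6%) and 1 to 5 as counts per cell (all genes 7.15% and 29.2%). For ML and basal cells as counts per cell, 42.0% of all genes were higher in ML and 12.4% higher in basal cells. With total counts the member shares were near or below the background of all genes, apart from 16.7% against 11.5% for LP over basal cells. Under TMM the 8 members higher in LP than in ML cells lay above it. The median log2 ratio of the 36 was -0.20 for LP over basal cells (all genes -0.22), -0.56 for ML over basal cells (all genes 0.01) and 0.31 for LP over ML cells (all genes -0.25). With the 13 cells left out, Mcm2 was the only member 2-fold higher in LP than in basal cells (all genes 11.4%), and 7 were higher in basal cells (all genes 21.6%). None was higher in LP than in ML cells (all genes 9.52%), and 5 were higher in ML cells (all genes 17.5%). Those cells were chosen by their mitosis genes, so a fall of these genes without them was built in.

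Other cell cycle genes were then read in the 13 cells, from a list of 70 genes that holds none of the 44. Their summed level was 9032 CPM in the 13 cells and 1927 CPM in the rest, 4.69 times higher (4.35 to 5.05). The ratio was 3.48 within basal cells (3.01 to 4.0), 6.02 within LP cells (5.33 to 6.77) and 3.80 within ML cells (3.24 to 4.44), and the cell outside the rules stood at 26273 CPM. Of the 51 listed genes with 10 or more counts, 44 (86.3%) were 2-fold or more higher in the 13 cells, against 17.1% of 12062 genes, and 2 were 2-fold or more lower, against 41.1% of genes. Of the 17 with 100 or more counts the numbers were 14 higher and 0 lower, against 13.9% and 22.5% of 7286 genes. Tuba1b, an alpha-tubulin, had 189 of its 5657 counts there, and H2afx, the histone of DNA damage foci, had 36 of 663. Dut, the dUTPase that keeps uracil out of DNA, had 33 of 736, Anp32e, a chaperone of H2A.Z, 24 of 953, and Cks1b, a partner of the cyclin-dependent kinases, 24 of 580. Pbk (18 of 22) and Spc24, a kinetochore protein (18 of 26), were picked after their values were seen, as genes held mostly by the 13 cells. Tubb4b (54 of 5329 counts, 1.17 times the level in the rest) stood nearly level.

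All 20 members outside the mitosis list were 2-fold or more higher in the same cells, against that same 17.1% of all genes. Tk1 led with 18 of 33 counts there (54.5%), followed by Rrm2 (33 of 111, 29.7%), Hells (9 of 39, 23.1%), Stmn1 (4 of 20) and Mcm3 (11 of 59, 18.6%). Pcna (24 of 1147, 2.09%), Slbp (19 of 806, 2.36%) and Gins2 (6 of 199, 3.02%) had most of their counts elsewhere. Among the widely used genes Hmgb2 had 124 of 1455 counts there (8.52%), Tubb5 176 of 4590 (3.83%) and H2afz 80 of 2210 (3.62%). Cells within the 13 differed: the summed level of the 70 genes ran from 1968 to 26273 CPM with a median of 10175, and the lowest 3 were the ML cell with 6 mitosis genes, the LP cell with Birc5, Ccnb2 and Cenpa, and the ML cell with Cenpa, Aurka and Racgap1. In cells of the rest that were as deep as the shallowest of each lineage's cells, the median was 1983, 1544 and 1707 CPM and the highest 7099, 3666 and 6223 CPM in basal, LP and ML cells. The groups overlapped, since 8 of 73 such basal cells, 20 of 71 LP cells and 19 of 69 ML cells reached the lowest of the 13 cells of their lineage.

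The sorted basal library allowed the same reading in other cells, at a much lower depth (137 to 1946 UMIs, median 487). There 43 of the 44 members were detected, and 10 of 4771 cells (0.210%, 0.101 to 0.385) had 3 or more mitosis genes, up to 7. They held 74 of 204 mitosis counts (36.3%) and 0.447% of UMIs, with a median of 1231.5 UMIs against 486 in the rest, and their level of the 70 other cell cycle genes was 6.31 times that of the rest (5.28 to 7.49). Top2a was found in 6 of the 10. At 400 UMIs a cell, 3 of 3177 sorted cells (0.0944%) and 1 of 1280 basal cells of the total epithelial library (0.0781%) had 3 or more mitosis genes, with 1594 shallower sorted cells left out, so a difference between the libraries was not detectable. The summed mitosis level was 82.0 CPM in the sorted library against 52.4 CPM in basal cells of total epithelium, a ratio of 1.56 (1.25 to 1.95), but 59.3 CPM and 1.13 (0.837 to 1.52) in the 1757 sorted cells that met the basal rule. The 16 replication genes stood at 584 CPM in the sorted library and 530 CPM in basal cells of total epithelium, a ratio of 1.10 (1.02 to 1.19) that turned under TMM scaling (log2 of total over sorted 0.33). Within that list Pcna and Slbp were lower in the sorted library (187 against 316 CPM) and the other 14 genes were higher (397 against 214 CPM). The widely used genes stood at 792 and 1313 CPM. The libraries differ in sort and depth as well as in cells, which cannot be told apart.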

How the data were processed

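Counts were taken as the authors deposited them: whole numbers of UMIs per gene and cell for 2 libraries, without normalization. Cell Ranger 1.2.1 and the mm10 build are named in the submitters' processing notes. Cell calling and the collapse of reads into UMIs were done before deposit, and reads shared by near-identical genes are lost in such counting, which touches tubulin and histone members. Levels are counts per 1000000 counts of the same cells. Cells were thinned without replacement to 800 UMIs, or to 400 UMIs between libraries. Ratios carry exact conditional intervals. Genes with 10 or more counts over the 3 lineages were compared at a ratio of 2, with a floor of 3 counts for a lineage at 0. All 44 members were accounted for, and values are printed for those with the most counts in each role, for each 2-fold member, and for Mki67 and Top2a. Ratios were tested on simulated data, doublets were called with Scrublet in scanpy 1.11.5 and kept, and TMM factors came from edgeR 4.0.16 in R 4.3.3 (other steps Python 3.11.15). Members, lists and motifs were chosen with earlier results of these data known.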

Additional observations from a re-analysis of the deposited data

How the results depend on the processing

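Of 126 recomputed values 84 moved by less than the counting interval (or, for counts of genes, by less than 1.5 times), 34 moved further and 8 turned the direction of a ratio whose counting interval left out 0. The ratio of ML to basal cells for mitosis genes, whose interval held 0, also took both signs. The cause was not tested except where the alternative itself shows it. All values are log2 ratios unless said. Share of cells with 3 or more of the 44 genes: LP over basal cells -1.78, but -0.58 without thinning and -0.52 without the 4 widely used genes; ML over basal cells -1.67, but 0.036 without thinning and -3.19 at 400 UMIs; 19 further draws gave -2.48 to -1.36 and -1.93 to -1.22. Mitosis genes: LP over basal cells 0.97, but 0.24 without the deepest 5% of cells, 1.42 as counts per cell, -0.86 with LP cells of more ML than LP marker counts taken as ML and -1.03 without the cells with 3 or more mitosis genes; ML over basal cells -0.02, but 0.41 at lineage thresholds 2 times as high, -0.76 at thresholds per 1000 counts, 0.75 with those LP cells taken as ML, 0.80 as counts per cell and -0.37 without the cells with 3 or more mitosis genes. DNA replication genes: LP over basal cells -0.56, but -0.33 under TMM and -0.12 as counts per cell; ML over basal cells -0.76, but 0.058 as counts per cell. Widely used genes: LP over basal cells -0.98, but -0.83 at thresholds per 1000 counts, -0.75 under TMM, -0.54 as counts per cell and -1.08 without the cells with 3 or more mitosis genes; ML over basal cells -0.81, but -0.73 at the higher thresholds, 0.009 as counts per cell and -0.95 without Tubb5. Members 2-fold apart numbered 12 for LP and basal, 12 for ML and basal and 5 for LP and ML cells. At a ratio of 3 they were 5, 6 and 1. The share of all genes moved with the ratio: at 3, 7.46% were higher in LP and 12.99% in basal cells. For ML and basal cells it was 10.97% and 13.94%, and for LP and ML cells 6.14% and 8.31%. At a ratio of 1.5, 13 members were apart for LP and ML cells (all genes 14.24% and 30.97%). Under TMM 8 were apart for LP and ML cells (all genes 11.8% and 12.6%).

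The 70 held-out genes in the cells with 3 or more mitosis genes: 2.23, but 2.11 in cells of the 3 lineages under both threshold alternatives, 1.56 without the deepest 5% of cells, 2.64 at 5 or more mitosis genes, 2.83 with the cells found after thinning, 0.56 for 3 or more replication genes and 3.32 without the 4 most counted genes. Basal cells of total epithelium over the sorted library: mitosis genes -0.65, but -0.18 in sorted cells past the basal threshold, -0.17 under TMM and 1.35 as counts per cell; replication genes -0.14, but 0.33 under TMM and 1.85 as counts per cell; widely used genes 0.73, but 1.2 under TMM and 2.72 as counts per cell. The alternatives on LP cells with ML markers, on leaving out the cells with 3 or more mitosis genes and on the 4 most counted held-out genes were chosen after seeing the data. Leaving out the cells with 3 or more mitosis genes lowers the mitosis level by construction. No paired analysis was possible because each group is 1 library.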

Other observations

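Genes outside both lists were read in the 13 cells with 3 or more mitosis genes of the total epithelial library, as a description with no test. Of 1417 other genes with 10 or more counts in at least 6 of the cells, 14 stood 5-fold or more above the rest; the genes named were picked from these by value. 2810417H13Rik, the PCNA-associated factor of the replication fork, had 35 of its 42 counts there, in 9 of 13 cells against 0.0608% of the others. Tipin, a protein of the stalled fork, stood at 213 against 31.5 CPM, and Haus1 and Haus4, of the augmin complex that branches spindle microtubules, at 163 against 31.7 and 125 against 16.3 CPM. Pmf1, a kinetochore protein, was found in 84.6% of the 13 cells and in 6.14% of the rest. Upk3a (4146 against 60.8 CPM, in 6 of the cells), Il33 and Crym were also high there; these are no cell cycle genes, 6 of the 13 cells carried ML markers, and a part of lineage in these values was not tested.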
